A study of Mus musculus with 8 samples.

Results

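The genes described here are 10 precursors of neuropeptides made by sensory neurons: Calca, Calcb, Tac1, Adcyap1, Nppb, Sst, Gal, Npy, Nmb and Vip. They were found by their symbol among the 48315 symbols of the deposited tables, and all 10 were present, each in 1 row. The libraries held ribosome footprints, the stretches of mRNA of 28 to 34 nt that a ribosome shields from digestion, from dorsal root ganglia (DRG), where the cell bodies of sensory neurons lie. The mice were wild type, of a strain labelled SW, and every group received saline, so all 8 libraries are of control tissue. There were 4 libraries labelled female and 4 labelled male, numbered 1 to 4 within each label. The labels do not state age or whether the libraries came from separate animals, so a p-value here reflects the spread among these libraries alone, which may be technical.

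A neuropeptide is made as a longer precursor that enters the secretory pathway. Proteases of the granule cut it at pairs of basic residues, a carboxypeptidase trims those residues, and in many precursors an exposed glycine is then turned into the amide that ends the mature peptide. In the DRG these precursors mark classes of neuron. Calcitonin gene-related peptide (CGRP), substance P and PACAP belong to peptidergic nociceptors, natriuretic peptide B and somatostatin to itch neurons of the mouse, and galanin, neuropeptide Y and vasoactive intestinal peptide are known to rise in sensory neurons when their axons are cut. Footprints show that a precursor's mRNA was on ribosomes, and say nothing of peptide processing or release.

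The codons of the amidation signal were located in the annotated coding sequences, to show where the mature peptide ends and where members share sequence. A glycine followed by 2 basic residues occurred at 12 places in 8 of the 10 precursors. Nppb and Sst, whose mature peptides are not amidated, had none. The stretches below are from GENCODE M21 transcripts on GRCm38, 5′ to 3′ in the sense of the gene; capitals mark the glycine codon and the codons of both basic residues, and the lower-case bases encode the last residues of the peptide.
Calca, CGRP form (chr7:114632461-114632499, minus strand): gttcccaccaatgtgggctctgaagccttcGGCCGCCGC
Calca, calcitonin form (chr7:114633656-114633694, minus strand): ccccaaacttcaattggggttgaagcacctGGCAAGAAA
Calcb, CGRP (chr7:114722075-114722113, plus strand): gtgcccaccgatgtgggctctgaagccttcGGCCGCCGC
Tac1, substance P (chr6:7556735-7556773, plus strand): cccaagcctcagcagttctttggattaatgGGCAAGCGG
Tac1, neurokinin A (chr6:7559101-7559139, plus strand): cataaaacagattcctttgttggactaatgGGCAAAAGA
Adcyap1, PACAP (chr17:93204074-93204112, plus strand): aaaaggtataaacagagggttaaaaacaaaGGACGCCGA
Gal, galanin (chr19:3411592-3411630, minus strand): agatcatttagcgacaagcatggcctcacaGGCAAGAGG
Nmb, neuromedin B (chr7:80904287-80904839, minus strand, across an intron): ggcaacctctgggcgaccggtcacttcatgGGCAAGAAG

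The stretches of Calca and Calcb were identical at 37 of 39 bases and differed at T3G and A10G, with Calca first and positions counted from the first base shown. Over whole coding sequences, 39 windows of 28 bases were the same in both genes, which is 7.24% of the 539 windows of Calca and 8.35% of the 467 of Calcb. Footprints from those windows cannot be told apart, and how they were counted is not given in the sources used here. Both forms of Calca come from 1 gene by alternative splicing, and the deposited tables give 1 value for the gene, so footprints of CGRP and of calcitonin were not separated.

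Before the members, 4 features of the libraries bear on them. Depth ran from 3697690 assigned reads in male 1 to 12714550 in male 3, and 3 reads, the floor used here, were worth between 0.236 and 0.811 CPM (reads per 1000000 assigned reads); floors cover counting error only. Sex-linked genes contradicted the label of female 1 and female 3, where Y-linked genes summed to 121 and 138 CPM, and of male 1, where Xist was at 10.6 CPM and the Y-linked sum at 2.70 CPM. Male 1 also had the lowest value of 46.1% of the genes tested. Male 2 held more footprints of spinal cord neurons and glia than any other library. The summed level of 15 pan-neuronal genes, a check that the tissue holds neurons, ran from 20436 CPM in male 1 to 34315 CPM in female 1. Map1b, Nefl and Nefm, at means of 10213, 4829 and 4413 CPM, made up most of that sum, whose mean was 28940 CPM. The 10 precursors together took between 711 CPM, in male 1, and 1255 CPM, in female 1, which is 0.0711% to 0.125% of the reads. Set against the pan-neuronal genes in the same library, they were at 35.6 ± 3.68 per 1000 pan-neuronal footprints (SD, n = 8), from 28.9 in male 3 to 41.9 in male 4. In bulk tissue, fewer neurons of a type and less RNA on ribosomes per neuron cannot be told apart.

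Calca, the precursor of α-CGRP (chromosome 7, 114631478 to 114636357), was the leading member. Its footprints were at 782, 682, 738 and 662 CPM in female 1 to 4, and at 470.0, 633, 610 and 676 CPM in male 1 to 4. Male 1 lay below the rest, and the 2 labels overlapped through male 4. Its mean was 656 ± 93.3 CPM (SD, n = 8), and 683 ± 59.5 CPM without male 1. Per kilobase of coding length it reached 1609 ± 229 CPM, rank 28 of 21670 coding genes. Calcb, the precursor of β-CGRP (chromosome 7, 114718643 to 114723365), was at 84.7, 79.7, 77.6 and 89.7 CPM in female 1 to 4 and at 48.4, 67.7, 64.1 and 69.5 CPM in male 1 to 4. Every library labelled female lay above every library labelled male. Calca exceeded Calcb in all 8 libraries by a ratio of 9.12 ± 0.797 in CPM, from 7.38 in female 4 to 9.73 in male 4.

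Tac1, the precursor of substance P and neurokinin A (chromosome 6, 7554879 to 7565834), varied more than the CGRP genes. It was at 132, 81.8, 133 and 113 CPM in female 1 to 4 and at 48.7, 61.1, 93.8 and 95.4 CPM in male 1 to 4. Male 1 and male 2 were lowest, and female 2 lay among the libraries labelled male. The ratio of Calca to Tac1 in CPM therefore ran from 5.56 in female 3 to 10.4 in male 2. Adcyap1, the precursor of PACAP (chromosome 17, 93199017 to 93206537), was at 60.7, 34.4, 53.2 and 38.1 CPM in female 1 to 4 and at 27.3, 32.9, 32.8 and 36.9 CPM in male 1 to 4. Female 1 and female 3 stood above the other 6 libraries, which lay between 27.3 and 38.1 CPM. Nmb, the precursor of neuromedin B, a bombesin-like peptide (chromosome 7, 80902227 to 80905076), was among the most even members, at 99.3, 92.1, 99.3 and 107 CPM in female 1 to 4 and at 65.4, 91.5, 99.4 and 84.7 CPM in male 1 to 4. Only male 1 was clearly lower, and without it Nmb had a mean of 96.2 ± 7.34 CPM (n = 7). Its gene overlaps Sec11a, a signal peptidase subunit on the same strand with a mean of 34.2 CPM, and its values were not whole reads; the part of the overlap in its level was not tested.

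**Figure D1:**
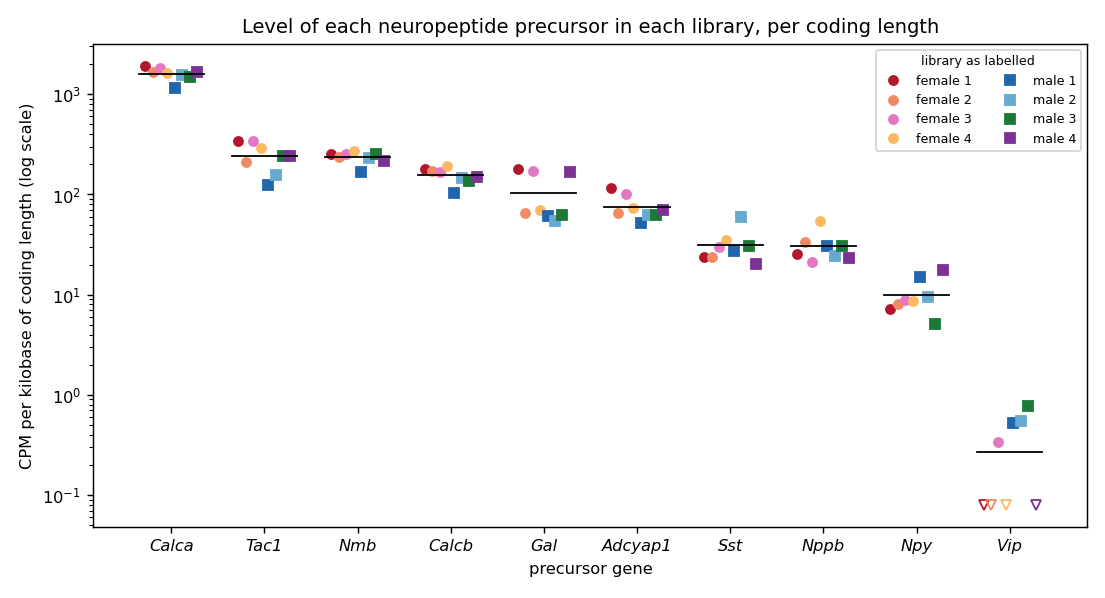
Footprint level of each precursor in CPM per kilobase of coding length (log axis); circles are libraries labelled female, squares libraries labelled male, horizontal lines the mean of 8 libraries, and open triangles mark values of 0, drawn below the axis range of the data. Calca, at a mean of 1609, lies above all others, Gal falls into 3 high and 5 low libraries, and Vip is at or under a few reads.

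Nppb and Sst, which mark itch neurons in the mouse, were both near 11 CPM on average. Nppb, the precursor of natriuretic peptide B (chromosome 4, 147985788 to 147987205), was at 9.25, 12.3, 7.64 and 19.7 CPM in female 1 to 4 and at 11.1, 8.79, 11.1 and 8.40 CPM in male 1 to 4. Female 4 was highest, and without it the mean was 9.80 ± 1.71 CPM (n = 7). Sst, the precursor of somatostatin (chromosome 16, 23889573 to 23890958), was at 8.20, 8.20, 10.5 and 12.2 CPM in female 1 to 4 and at 9.47, 20.8, 10.5 and 7.08 CPM in male 1 to 4. Male 2 stood alone, and the other 7 libraries differed 1.72-fold between lowest and highest. The ratio of Sst to Nppb was 2.37 in male 2 and between 0.620 and 1.38 in the other libraries.

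Sst is also made by neurons of the dorsal horn of the spinal cord, and male 2 was the library with the most spinal cord footprints. Male 2 was the highest library for 22.3% of all genes tested. Of 6 spinal cord neuron genes tested, 6 were highest in male 2, and their list summed to 339 CPM there against 53.5 to 64.7 CPM in the other libraries. Slc6a5, the glycine transporter of inhibitory neurons (named after its values were seen), was at 90.7 CPM in male 2 and at most at 7.37 CPM elsewhere. Spinal cord glia genes summed to 914 CPM in male 2 and to between 351 and 429 CPM elsewhere, with 8 of 9 highest in male 2. Their part in the level of Sst was not tested. Without male 2 the mean of Sst was 9.45 ± 1.76 CPM (n = 7). Calcrl, a receptor subunit for CGRP, Ramp1, its partner, and Adcyap1r1, the PACAP receptor (all 3 named after their values were seen), were among 9 of 17 receptor genes highest in male 2, Ramp1 at 21.1 CPM against at most 10.1 CPM elsewhere and Calcrl at 26.6 CPM against at most 21.9 CPM.

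The promoter of Sst was searched with those of the other members. The cyclic AMP response element, TGACGTCA, was searched on both strands in the 250 bases before each annotated start (RefSeq, GRCm38.p6), and it reads the same on both strands. It occurred in 508 of 32851 mouse promoters, 1.55%, and among the 9 members with an entry in Sst alone, starting 48 bases before the start. The stretch around it is shown because the somatostatin gene is a textbook target of cyclic AMP through this element; capitals mark the match, which is a match of letters and not evidence of binding in these cells.
Sst (within chr16:23890845-23891094, minus strand): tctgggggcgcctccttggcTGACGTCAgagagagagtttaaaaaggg

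**Figure D2:**
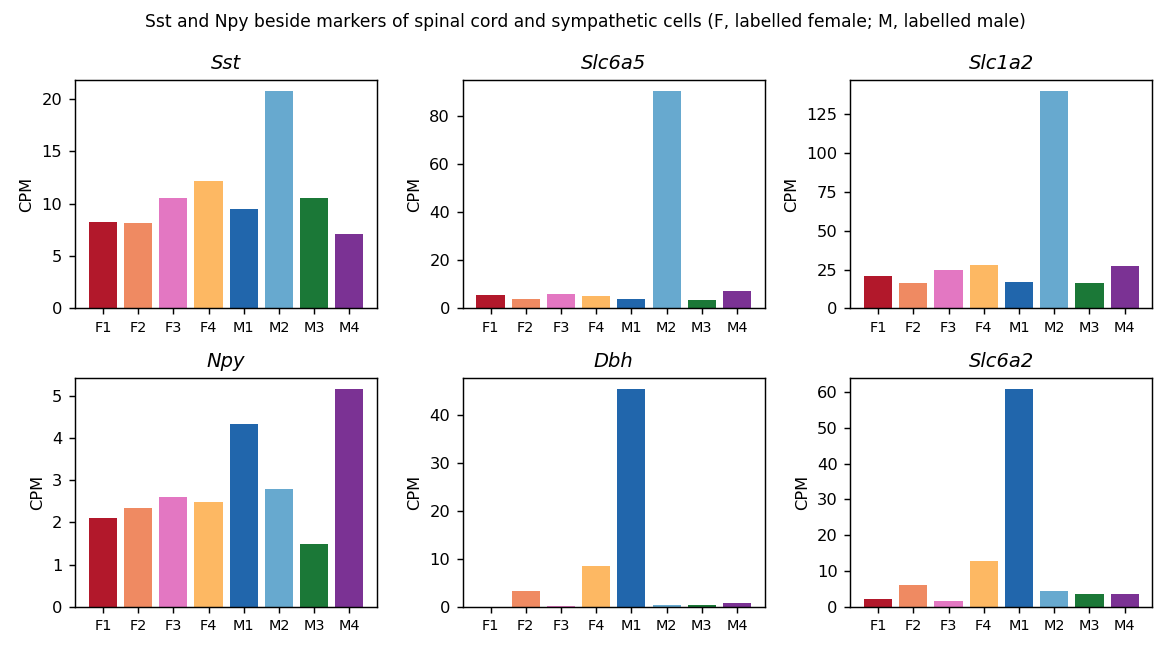
Bars give the level in CPM of 1 gene per panel in each library (F, labelled female; M, labelled male): Sst beside Slc6a5 and Slc1a2, genes of spinal cord neurons and astrocytes, and Npy beside Dbh and Slc6a2, genes of sympathetic neurons; the panels have different axes. Sst, Slc6a5 and Slc1a2 (the last also named after its values were seen) are highest in male 2, at 20.8, 90.7 and 140 CPM. Dbh and Slc6a2 are highest in male 1, at 45.4 and 60.8 CPM, and Npy in male 4.

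Gal, the precursor of galanin, a peptide that sensory neurons make in quantity after axotomy (chromosome 19, 3409915 to 3414544), fell into separate levels. It was at 76.1, 27.8, 72.0 and 29.3 CPM in female 1 to 4 and at 25.7, 23.0, 26.6 and 71.1 CPM in male 1 to 4. Female 1, female 3 and male 4 lay between 71.1 and 76.1 CPM, and the other 5 libraries between 23.0 and 29.3 CPM, so the high libraries came from both labels. Relative to Calca in the same library, Gal was at 9.73%, 9.76% and 10.5% in those 3 libraries and at 3.64% to 5.47% in the others. Its coefficient of variation was 55.1%, where counting alone gives 5.66%. Whether female 1 and female 3 are independent was not tested: over 9598 genes they were the closest but one of the 28 pairs of libraries, with an SD of the log2 difference of 0.261. The closest pair was female 3 and male 3, at 0.254, and Gal was at 72.0 CPM in the former and at 26.6 CPM in the latter.

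The libraries high in Gal were also high in genes known to be induced by nerve injury. A search for the same 3 highest libraries, made after the values of Gal were seen, found 335 of 15720 genes tested, 2.13%. In the list of axotomy-induced genes it found 7 of 11 tested: Sprr1a, Gpr151, Atf3, Sox11, Sema6a, Flrt3 and Gap43. Sprr1a, a protein of growing axons, was at 12.9, 12.8 and 11.9 CPM in female 1, female 3 and male 4 and at 0.811 to 1.94 CPM in the other 5 libraries. Atf3, a transcription factor of injured neurons, was at 12.4, 13.9 and 10.5 CPM in those 3 libraries and at 3.35 to 8.72 CPM in the others. With 1 CPM added to each value, the gap between the 3 libraries and the others was at least 2-fold in Gal and Sprr1a and in no other gene tested (0.0127%). These genes of the list were named after their values were seen. Gal, whose values set which 3 libraries were searched for, is itself counted in the 2.13% and in the 0.0127%. The whole list of 12 summed to 353, 366 and 323 CPM in the 3 libraries and to 175 to 268 CPM in the others. The separation was narrow in Sox11, Sema6a, Flrt3 and Gap43, where the lowest of the 3 libraries exceeded the highest of the others by ratios of 1.06 to 1.11 with 1 CPM added. The other 4 genes tested, Jun, Gadd45a, Ecel1 and Csf1, did not have this order; Gadd45a was at 6.93 CPM in male 4, second lowest of the 8 libraries. The order was not particular to that list. It held for 2 of 7 peptidergic nociceptor genes other than members and 2 of 8 non-peptidergic nociceptor genes. It also held for 3 of 16 genes of peptide processing and granules, 2 of 11 other peptide precursors and 0 of 15 pan-neuronal genes. The part of injury-induced genes in the level of Gal was not tested, and the labels name no injury.

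The genes whose pattern over the 8 libraries was most like that of Gal were searched among 9230 coding genes averaging 10 CPM or more. By the root mean square difference of centred log2(CPM + 1), Nts, the precursor of neurotensin, was nearest at 0.29, followed by Bdnf, a neurotrophin, at 0.34 and Ppp3r1, a subunit of calcineurin, at 0.37; the deviation of Gal itself was 0.70. Atf3, with a mean of 7.80 CPM and so outside the search, was at 0.29 as well. Nts was at 17.6, 12.7 and 26.1 CPM in female 1, female 3 and male 4 and at 5.16 to 7.89 CPM in the others. Bdnf was at 28.6, 24.6 and 17.4 CPM in those 3 libraries and at 11.1 to 13.7 CPM in the others. Vgf, a granule protein that gives rise to several peptides (named after its values were seen), was at 358, 333 and 322 CPM in those libraries and at 149 to 232 CPM elsewhere. Of the members, Gal alone had these 3 highest libraries.

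The AP-1 element, TGANTCA, was searched on both strands in the same windows, also in 4 genes high in the same libraries as Gal, chosen after their values were seen. Sprr1a had 2 matches, Nts 1, 1 of the 7 promoters of Bdnf had 1, and Atf3 had none. The element reads the same on both strands, and 2217 of 32851 promoters, 6.75%, held it. The stretches in Sprr1a and Nts are shown because AP-1 factors, among them Jun and Atf3, are known from injured neurons. No member with an entry held the letters, Gal included, which says nothing about the binding of these factors. Capitals mark the matches.
Sprr1a (within chr3:92485882-92486131, minus strand): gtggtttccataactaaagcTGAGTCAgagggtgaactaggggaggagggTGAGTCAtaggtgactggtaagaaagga
Nts (within chr10:102490419-102490668, minus strand): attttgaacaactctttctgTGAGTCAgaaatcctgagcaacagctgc

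**Figure D3:**
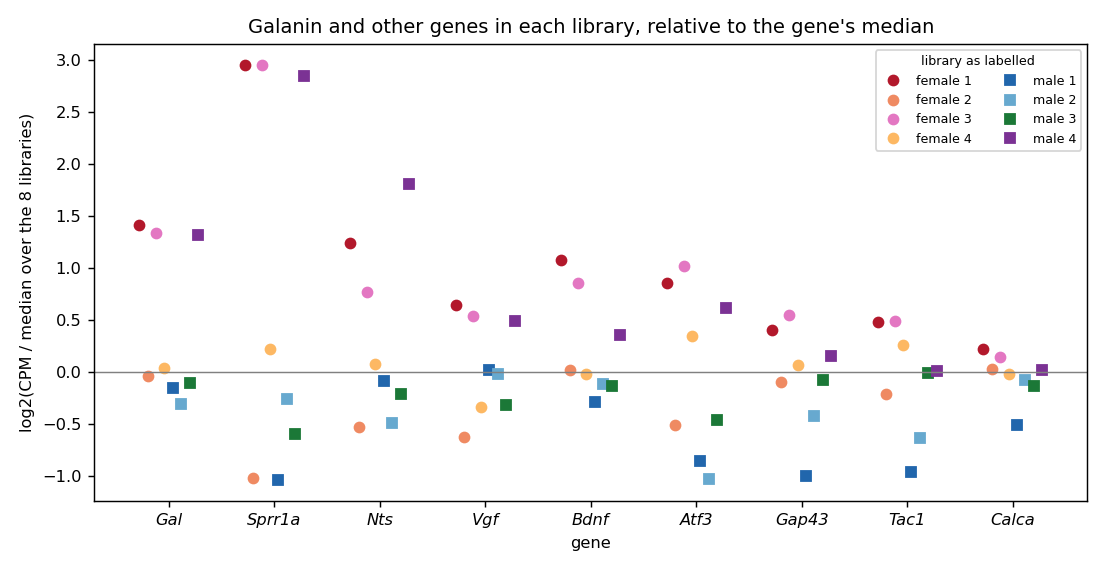
Each point is 1 library, as the log2 ratio of its CPM to the median of the gene over 8 libraries (0 is the median); Tac1 and Calca are drawn for contrast. Female 1, female 3 and male 4 lie above the other 5 libraries in Gal and in the 6 genes drawn beside it, but male 4 lies near the median in Tac1 and Calca.

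Npy, the precursor of neuropeptide Y (chromosome 6, 49822710 to 49829507), rested on few reads. It was at 2.09, 2.34, 2.61 and 2.49 CPM in female 1 to 4 and at 4.33, 2.79, 1.49 and 5.16 CPM in male 1 to 4, from 12 to 35 reads a library and 170.0 in all. Male 4 and male 1 were highest and male 3 lowest, so the libraries labelled male spanned both ends. Neuropeptide Y is also made by sympathetic neurons, and a list of their genes summed to 194 CPM in male 1 against 43.1 to 76.8 CPM in the other libraries, with 5 of 7 tested genes highest in male 1. Dbh, the enzyme that makes noradrenaline (named after its values were seen), was at 45.4 CPM in male 1, 8.58 CPM in female 4, 3.28 CPM in female 2 and at most 0.885 CPM in the others, with 0 in female 1. In male 4, where Npy was highest, Dbh was at 0.885 CPM and the list at 49.8 CPM, and male 4 was among the libraries high in Gal. The part of sympathetic neurons in the level of Npy was not tested. Without male 1 the mean of Npy was 2.71 ± 1.16 CPM (n = 7), against 2.91 ± 1.22 CPM with all 8.

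Vip, the precursor of vasoactive intestinal peptide (chromosome 10, 5639218 to 5647617), was at or near the floor. It had 10 reads in all, at 0.174 CPM in female 3, 0.270 CPM in male 1, 0.279 CPM in male 2 and 0.393 CPM in male 3, and was at 0 in the other 4 libraries. Only male 3 was above the floor of its own library. No difference between libraries was detectable at this depth.

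Per coding length the members kept a wide order, with some neighbours that could not be ranked. Calca, at 1609 CPM per kilobase, was above Tac1, at 243 ± 78.6, in every library without overlap. Tac1 and Nmb, at 235 ± 32.7, did not differ beyond their spread, each being higher in 4 libraries. Calcb, at 155 ± 28.0, was below Nmb in 8 of 8 libraries, and Gal, at 104 ± 57.2, below Calcb in 6 of 8. Adcyap1, at 75.3 ± 21.7, was below Gal in 6 of 8 and above Sst, at 31.2 ± 12.4, in 8 of 8. Sst and Nppb, at 30.4 ± 10.5, changed places with the library. Npy, at 10.01 ± 4.18, and Vip, at 0.272 ± 0.313, were lowest, each below the member before it in every library without overlap. Without division by length, Sst and Nppb exchanged ranks and the other 8 kept theirs. As a share of the footprints of all 10 genes, Calca took 64.3% ± 2.24, Nmb 9.09% ± 0.940, Tac1 9.06% ± 1.76, Calcb 7.09% ± 0.658, Gal 4.14% ± 1.81 and Adcyap1 3.81% ± 0.543, with at most 2.21% for each of the others in any library. The share of Calca was between 61.6% and 67.2%, a narrower relative range than that of its CPM, which differed 1.66-fold. Calca is itself most of the sum that the share is taken of, and this alone narrows the range of its share.

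**Figure D4:**
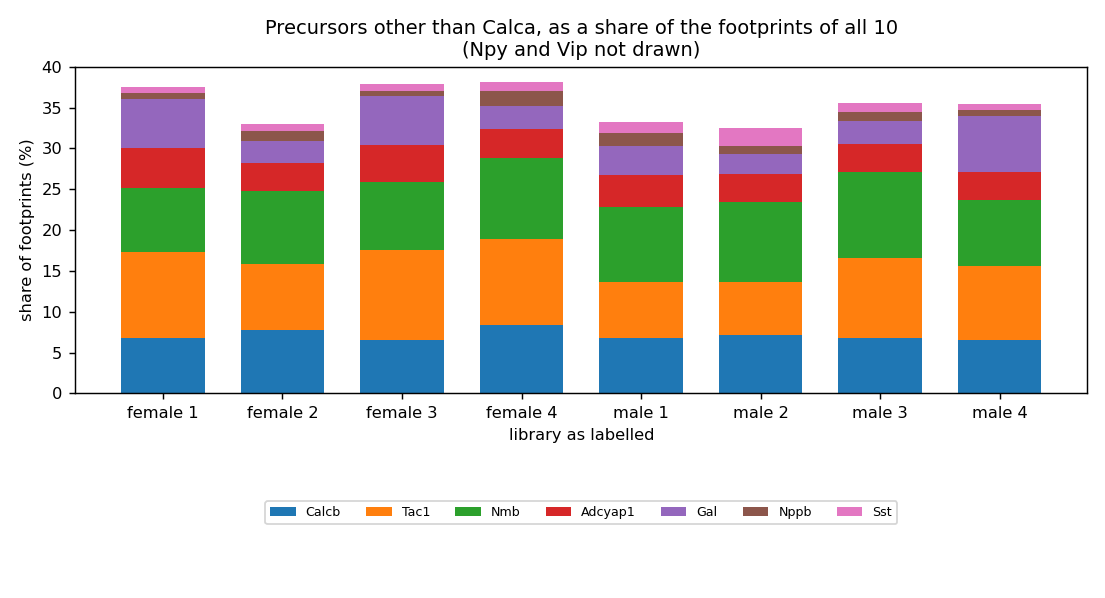
Stacked bars of the share of each precursor other than Calca in the summed footprints of all 10 precursors, in percent, by library; Npy and Vip are not drawn. The band of Gal is 6.07%, 6.03% and 6.74% in female 1, female 3 and male 4 and 2.45% to 3.62% in the other 5 libraries.

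The comparison that the labels imply is between libraries labelled female and male, and no member passed it. In a limma fit of log2(CPM + 1) to the 15720 genes that averaged 1 CPM or more, 0 had an adjusted p under 0.05 (percent called 0; smallest adjusted p = 0.372), and 2099 genes, 13.4%, had an unadjusted p under 0.05. Of the members 9 were tested, Vip being too low; 7 were higher in female and 2 lower, and none was called. The median log2 fold change of the 9 was 0.27, and that of all genes 0.15, with 71.7% of all genes higher in female. Of 15 pan-neuronal genes tested, 15 were higher in female and 0 called, with a median of 0.37. Of these 15, 8 had an unadjusted p under 0.05 in the same limma fit. Tac1 had the largest fold change of the members with all 8 libraries, though Nppb exceeded it without the 3 libraries against their label, and Gal without male 4 or without female 4. It averaged 115 ± 23.9 CPM under the female and 74.8 ± 23.5 CPM under the male label (SD, n = 4), a log2 fold change of 0.64 with an SE of 0.23 (limma adjusted p = 0.372). Calcb was at 82.9 ± 5.42 and 62.4 ± 9.59 CPM (log2 fold change 0.42, 95% interval 0.12 to 0.71, limma adjusted p = 0.372). It was the only member whose groups did not overlap, which held for 4.55% of all genes, and for 3.43% with female higher. Adcyap1 was at 46.6 ± 12.4 and 32.5 ± 3.92 CPM (log2 fold change 0.48, SE 0.19, limma adjusted p = 0.372). These 3 were higher in the female-labelled library in 4 of 4 pairs of the same number. The other members were so in 3 pairs (Calca, Gal and Nmb), 2 (Nppb), 1 (Sst and Npy) or 0 (Vip). How many of all genes were higher in 4 of 4 pairs was not counted, and 71.7% had a higher mean in female. Y-linked genes summed to 121 CPM in female 1 and 2.70 CPM in male 1, and to 138 CPM in female 3 and 125 CPM in male 3. The order within pairs was therefore not a test of sex. The same 3 members had an unadjusted p under 0.05 in the limma fit without pairing, of 0.0107 for Calcb, 0.0191 for Tac1 and 0.0261 for Adcyap1.

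In the other members the 95% interval of the fold change included 0. Calca averaged 716 ± 54.7 and 597 ± 89.0 CPM, a log2 fold change of 0.27 with an interval from -0.03 to 0.57, and Nmb and Nppb had fold changes of 0.23 and 0.21. Gal had 0.49, with an interval from -0.42 to 1.40, and Sst and Npy had -0.18 and -0.31. Without female 1, female 3 and male 1, the libraries against their label, the log2 fold change was 0.23 in Tac1, 0.082 in Adcyap1, 0.072 in Calca, 0.33 in Calcb and 0.12 in Nmb, and 0.68 in Nppb, with 0 members called. Rescaled to the pan-neuronal genes, it was 0.38 in Tac1, 0.22 in Adcyap1, 0.15 in Calcb, 0.0051 in Calca and 0.23 in Gal. Directions of Sst, Gal, Nppb and Nmb turned with the libraries or the scaling: Sst was at 0.10 without male 2, Gal at -0.30 without female 1, female 3 and male 1, Nppb at -0.028 without female 4 and -0.027 rescaled to the pan-neuronal genes, and Nmb at -0.029 with that rescaling. Scaling also moved the median of all genes by more than 0.1, from 0.15 to -0.0016 by median ratios and -0.092 by pan-neuronal genes, and the median of the members followed, to 0.10 and 0.0051. Adding a block for the replicate number gave 27 called genes, 0.172% of those tested, and 0 called members; Tac1 was nearest (limma adjusted p = 0.136), followed by Calcb (adjusted p = 0.183).

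**Figure D5:**
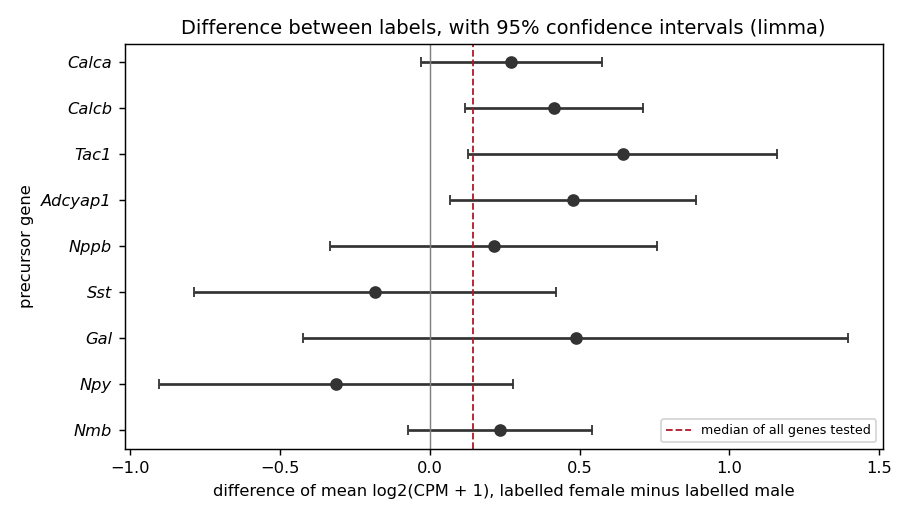
Points are log2 fold changes of the 9 members tested, libraries labelled female over those labelled male on the log2(CPM + 1) scale, and bars are 95% intervals from limma; the dashed line is the median of all genes, 0.15. The interval lies above 0 in Calcb, Tac1 and Adcyap1, and no member passed adjustment over 15720 genes; Sst, Gal, Nppb and Nmb change sign in at least 1 alternative.

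Other genes of peptide signalling were read from lists, as background to the members. Of 16 genes of peptide processing and granules, 16 were tested, 10 higher and 6 lower in female and 0 called, with a median log2 fold change of 0.017 against 0.15 in all genes. The most abundant were Scg3, a granin-binding protein, at 1163 CPM on average, Cpe, the carboxypeptidase that trims basic residues, at 1106 ± 79.8 CPM, and Cadps, a priming factor of granule release, at 450.0 CPM. Pam, the enzyme that turns the C-terminal glycine of the trimmed peptide into an amide (named after its values were seen), was at 216 ± 16.9 CPM, with a narrow range from 192 to 239 CPM. The levels of the processing genes are per gene and not per length.

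Of 27 receptor genes for these peptides 17 were tested, 7 higher and 10 lower in female and 0 called, with a median log2 fold change of -0.0059. Npr2, a natriuretic peptide receptor whose ligand is C-type natriuretic peptide, had the highest mean at 79.9 ± 7.09 CPM, followed by Ramp2, a partner of Calcrl for adrenomedullin, at 39.4 ± 5.79 CPM and Npy1r, a receptor of neuropeptide Y, at 22.1 ± 2.57 CPM. Of 30 other peptide precursors 11 reached a mean of 1 CPM, 6 higher and 5 lower in female and 0 called, with a median of 0.0062. They were led by Cartpt at 38.9 ± 8.51 CPM, Bdnf at 16.7 ± 6.46 CPM and Penk, the enkephalin precursor, at 14.5 ± 6.97 CPM. Per kilobase of coding length Cartpt stood at 100 CPM, close to the mean of 104 CPM of Gal.

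Markers of the neuron classes that make these peptides were read from lists as well. The 7 peptidergic nociceptor genes other than members summed to between 508 and 586 CPM, and among the most abundant were Kit, a receptor tyrosine kinase, at 107 CPM and Trpv1, the capsaicin channel, at 96.1 CPM. Of these genes 2 were higher and 5 lower in female, with a median log2 fold change of -0.035 and 0 called. The 10 itch neuron genes other than members summed to between 992 and 1340.5 CPM. They were led by Jak1, at 455 CPM on average, Plcb3, at 432 CPM, and F2rl2, at 144 CPM. Jak1 and Plcb3 made up most of the sum, and how far they are confined to itch neurons was not tested. Of the 10 genes 5 were higher and 5 lower in female, with a median of 0.0019 and 0 called.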

How the data were processed

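Ribosome footprints of DRG were measured in 8 libraries, 4 labelled female and 4 labelled male. Per the submitters' processing notes the tools were Cufflinks 2.2.1, TopHat2 2.1.1, FastQC 0.11.5 and Bowtie2 2.2.9, and the builds mm10 and GRCm38.p4. The step each performed is not given in the sources used here, nor is the annotation. Both tables that the authors deposited have 48431 rows and are named as TPM, but the values are CPM: each column sums to 1000000, and 95.7% to 96.5% of values above 0 were whole multiples of 1 step per library, within a tolerance of 0.01. A value is therefore a share of reads with no length correction, and the test planned for TPM, on log2 values, was kept. Values that were not whole held 18.7% to 34.7% of the reads, so no count test was run.

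Rows with the same symbol were summed. Levels per kilobase used the longest coding sequence in GENCODE M21 on GRCm38, where 99.2% of identifiers were found. The label comparison used log2(CPM + 1) of genes averaging 1 CPM or more, fitted with limma 3.58.1 (R 4.3.3) and a trend of the variance on intensity. The p-values are two-sided and adjusted by Benjamini-Hochberg over all genes, with 0.05 as the threshold. The fit was tested on simulated data with independent libraries and correct labels. The libraries here may not meet that setting, so the simulation does not vouch for this comparison. A fold change is on the log2(CPM + 1) scale and understates changes of low genes. Counting error is the Poisson spread of the reads. Python 3.11.15, numpy 2.4.6, pandas 2.3.3, matplotlib 3.10.9 and Biopython 1.88 served the rest.

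Same-numbered libraries deviated together from their label means, with correlations of 0.288, 0.492, 0.531 and 0.592, all above 0.1. The correlation was not computed between libraries of different numbers, so whether the numbers pair the libraries was not tested. The SD of the log2 difference was 0.307, 0.254 and 0.388 between the libraries of number 2, 3 and 4. Female 1 was at 0.484 from male 1 and closer, at 0.261, to female 3. The labels give no meaning for a number, so a pairing could be read only from the values. The fit reported first has no block, and the fit with the block is given beside it. The members and the gene lists were chosen with earlier results of these data known. Genes named are the members, the 3 most abundant of each list used (except 1 gene not reported here), list genes called (there were none), the 3 genes most like a member in pattern, and the Y-linked genes and Xist; others are marked as named after their values were seen. Alternatives were another pseudocount, other filters and scalings, the replicate block and leaving out libraries. Libraries of RNA abundance were not used here.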

Additional observations from a re-analysis of the deposited data

Results flagged for a closer look

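Among 20 groups of 4 libraries, the 10 members by label, 2 held a library far from the other 3; chance flags about 1 in 20 groups. Gal was at 71.1 CPM in male 4, against 23.0 to 26.6 CPM in the other libraries labelled male, a gap of 0.926 of the whole range. Vip was at 0.174 CPM in female 3 and at 0 in the other libraries labelled female, which is 2 reads and below the floor of 3.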

How the results depend on the processing

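Of 152 recomputed fold changes of members under 17 settings, 147 kept their direction, though not always their size, and stayed uncalled, and 5 turned: Nppb at -0.027 rescaled to the pan-neuronal genes and at -0.028 without female replicate 4, Sst at 0.10 without male replicate 2, Gal at -0.30 without the 3 libraries against their label, and Nmb at -0.029 rescaled to the pan-neuronal genes; the cause was not tested. Without the libraries against their label Tac1 went from 0.64 to 0.23 and Adcyap1 from 0.48 to 0.082, and with pan-neuronal rescaling Calca went from 0.27 to 0.0051 and Calcb from 0.42 to 0.15. Genes called numbered 0 with all 8 libraries and with each left out, 27 with the replicate block and 5 without the libraries against their label. Without division by length 2 members changed rank. Leaving out a library, log2 fold changes ran from 0.16 to 0.34 in Calca, 0.30 to 0.47 in Calcb, 0.46 to 0.80 in Tac1, 0.34 to 0.61 in Adcyap1, -0.028 to 0.39 in Nppb, -0.37 to 0.10 in Sst, 0.25 to 0.85 in Gal, -0.56 to -0.13 in Npy and 0.11 to 0.31 in Nmb. Leaving out single libraries moved the count of 2099 genes at an unadjusted p under 0.05 most for female 1 (807), female 3 (795), male 1 (966), male 4 (1249), female 2 (2955) and male 3 (3518). With the block no member was called. The planned count tests were not run, since reads could not be recovered as whole numbers for nearly all genes, nor was the order by RefSeq protein length. Depth limits Npy and Vip, with 170.0 and 10 reads.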

Other observations

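The patterns of Calca, Nmb and Tac1 over the 8 libraries each had a near neighbour among coding genes averaging 10 CPM or more. Calca was nearest to Csk, a kinase that restrains Src, with a root mean square difference of centred log2(CPM + 1) of 0.05 against a deviation of 0.21 in Calca itself. Nmb was nearest to Ndufc2, a subunit of mitochondrial complex I, at 0.04 against 0.20, and Tac1 to Exosc7, a subunit of the RNA exosome, at 0.06 against 0.48. The nearest genes to the itch peptides lay farther off: Nppb was nearest to Plod2, a collagen-modifying enzyme, at 0.19 against 0.37, and Sst to Elmod1 at 0.15 against 0.41. Counting alone gives a coefficient of variation of 11.5% in Nppb and 11.4% in Sst. It gives 1.46% in Calca, 3.87% in Nmb and 3.78% in Tac1. The part of counting error in these distances was not tested.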
